A study of Mus musculus with 8 samples.

Results

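The 10 genes described here are regulators of the G1 phase of the cell cycle and of its exit, measured by RNA-seq in regulatory T cells (Tregs) of mouse blood. They were taken by name: the inhibitors Cdkn1a, Cdkn1b and Cdkn2d, the D-type cyclins Ccnd2 and Ccnd3, the kinases Cdk4 and Cdk6, the pocket protein gene Rb1, the E2F partner Tfdp1 and Anapc7, a subunit gene of the anaphase-promoting complex. All 10 were found among the 56980 genes of the count table. Tregs were sorted by flow cytometry from the blood of male C57BL/6j mice, bought at 8 weeks of age, with 4 libraries from HADA mice and 4 from control mice. HADA (high-altitude de-acclimatization) mice lived for 28 days in a hypobaric chamber set to an altitude of 6000 m and were then moved to normoxia, and control mice stayed in normoxia throughout. The gate for these libraries (CD4+CD25+ in a co-culture assay of the study) and the day of sorting after the return are not given in the sources used here, nor is whether each library came from a different animal, so that the p-values measure only the spread between libraries, which may be technical.

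In G1 the retinoblastoma protein, encoded by Rb1, binds E2F factors and their DP partners, of which Tfdp1 encodes one, and keeps the genes of S phase shut. D-type cyclins, joined to Cdk4 or Cdk6, phosphorylate this pocket protein and so release E2F. The INK4 inhibitors, such as the Cdkn2d product, bind Cdk4 and Cdk6 directly, while the CIP/KIP inhibitors p21 (Cdkn1a) and p27 (Cdkn1b) bind cyclin and kinase complexes, and p27 is known to hold T cells in quiescence. The anaphase-promoting complex is a ubiquitin ligase that destroys cyclins at the end of mitosis and in G1. The study asks how HADA changes the number and function of Tregs, and the comparison below asks how the transcripts of these regulators differ between the groups.

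The libraries were unequal. Totals ran from 22929193 to 28240337 counts in HADA and from 14452433 to 22584062 in control replicates 2, 3 and 4, while control replicate 1 held 1477431, so that a floor of 3 counts equals 1.86 CPM there (CPM is a count scaled to the library's TMM-adjusted total) against at most 0.18 in any other library. The counts cover whole gene spans, introns included, and all 1077 of the 1077 protein-coding genes whose spans other genes cover fully stood at 0 in every library. Foxp3, which defines Tregs, and Tnfrsf18 are among these, so that the sort could be checked only on the other 6 of 8 Treg marker genes. Their summed level was 1137 to 2901 CPM in HADA and 236 to 1005 in control, with all 6 log2 fold changes positive and none past the thresholds given below, among them Il2ra (376.6 ± 255.5 against 63.7 ± 79.7 CPM, SD, n = 4 each) and Ctla4 (516.4 ± 297.3 against 73.8 ± 101.4 CPM, SD, n = 4 each). Cd4, Ikzf4, Ikzf2 and Cd3e had smaller log2 fold changes, 0.63, 0.99, 1.29 and 1.37. Cd4 had 3.73 and 4.79 CPM in control replicates 2 and 3, against 198.9 and 220.2 in control replicates 1 and 4. In HADA it had 88.0 to 233.9 CPM. Cd3e had 1.41 CPM in control replicate 2 and 77.0 or more in every other library. In bulk RNA, fewer cells of a type and less RNA per cell cannot be told apart.

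Among the 10 genes, Cdk6 was the only one with a lower fitted level in HADA, and 9 had positive log2 fold changes, with a median of 0.996 over the 10 against 0.01 over all 21991 genes tested. Of those 21991 genes, 11045 had positive values. Shorter genes stood higher: tested protein-coding genes had a median of 0.73 with spans up to 10 kb. Cdkn1a, Cdkn1b, Cdkn2d and Cdk4 are of that length. With spans of 10 to 100 kb, as for Ccnd2, Ccnd3, Tfdp1 and Anapc7, the median was 0.36. By the edgeR quasi-likelihood test, none of the 10 passed both thresholds, 0.05 for the p-value after Benjamini-Hochberg (BH) adjustment and 1 for the size of the log2 fold change, against 2.13% of all genes tested (1.65% higher and 0.477% lower in HADA). An unadjusted p below 0.05 was reached by 5 of the 10, Cdk6, Cdkn1a, Anapc7, Cdkn2d and Tfdp1, against 26.7% of all genes. Leaving out control replicate 2 reduced these 5 to 1, Cdk6. Leaving out control replicate 3 or 4, or HADA replicate 4, reduced them to Cdk6 and Cdkn1a. The share of all genes fell as well in these fits, to between 16.4% and 20.5%. Without HADA replicate 1 or 2, 4 of the 5 remained, and without HADA replicate 3, 3 did, against 21.1% to 23.9% of all genes. Without control replicate 1 all 5 remained, against 48.7% of all genes. With DESeq2, 3 of the 10 passed, Cdkn1a and Anapc7 higher and Cdk6 lower in HADA, where 6.78% of all genes passed as higher and 11.3% as lower. The same 3 passed with edgeR when control replicate 1 was left out, where 15.5% of all genes passed as higher and 19.7% as lower. In no gene of the 10 did the groups separate fully, against 9.13% of all genes with every HADA library above every control library and 5.7% with every HADA library below. Apart from control replicate 1, Cdkn2d, Tfdp1 and Anapc7 lay higher in every HADA library (18.4% of all genes did) and Cdk6 lower in every one (26.6% did).

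**Figure D1:**
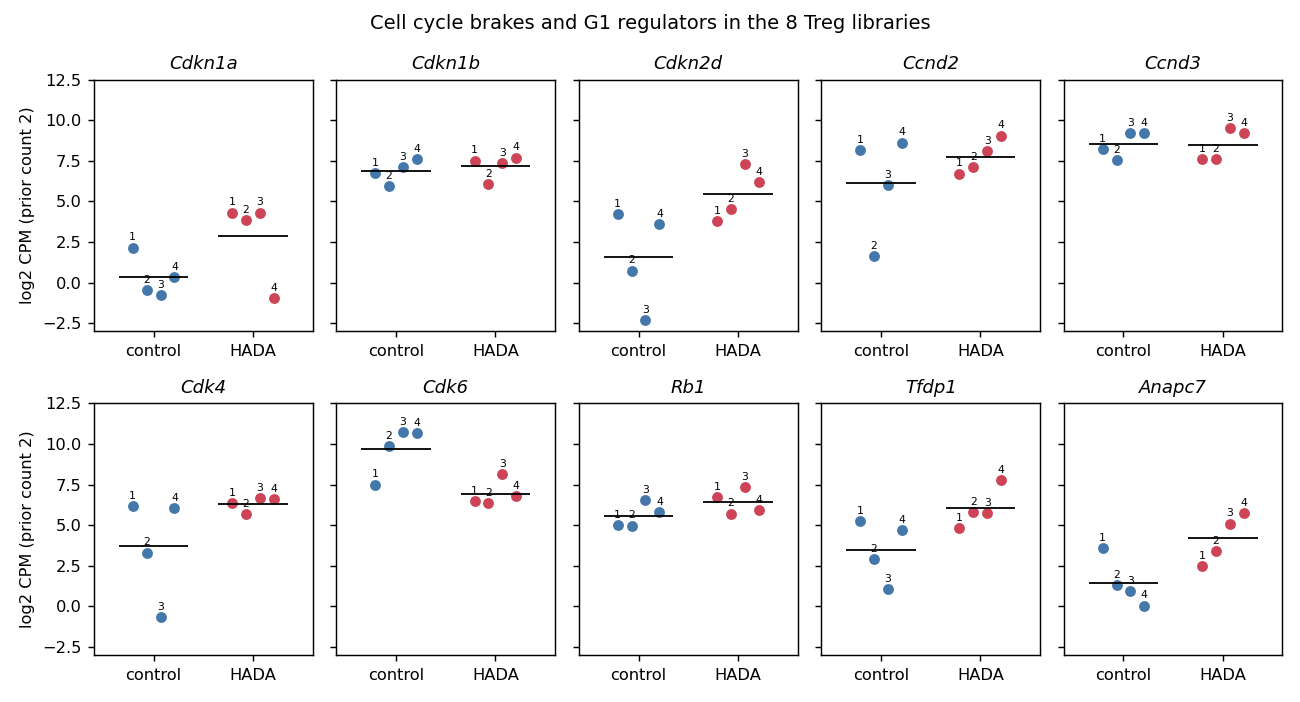
Level of the 10 genes in each library, as log2 CPM with a prior count of 2 on a shared vertical axis; blue points are control and red points HADA libraries, numbers are replicates and black lines group means. In the Cdk6 panel control replicates 2, 3 and 4 stand above every other point and control replicate 1 lies among the HADA libraries; in the Cdkn1a panel HADA replicate 4 lies with the controls.

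Of the kinases, Cdk6 had a negative and Cdk4 a positive log2 fold change. Cdk6 (ENSMUSG00000040274, chromosome 5, 3391485 to 3581008, plus strand, GRCm39) encodes a kinase that binds D-type cyclins and is prominent in blood cells. It had 924, 1701 and 1634 CPM in control replicates 2, 3 and 4 (29520, 48701 and 28202 counts), and 181 CPM (291 counts) in control replicate 1. HADA replicates 1 to 4 had 88.7, 81.8, 280.5 and 110.9 CPM. Control replicates 2, 3 and 4 were thus far above every HADA library, and the shallow control library lay between HADA replicates 3 and 4. The fitted level was 7.90-fold lower in HADA, a log2 fold change of -2.98 ± 0.85 (SE, edgeR quasi-likelihood, BH-adjusted p = 0.082), and 0 of 4 HADA libraries reached the control mean. Without control replicate 1 the log2 fold change was -3.21 ± 0.66 (SE, edgeR quasi-likelihood, BH-adjusted p = 0.013), and with DESeq2 on all 8 libraries it was -3.24 ± 0.80 (SE, BH-adjusted p = 0.0021). Over all 19 alternatives it ran from -5.09 to -2.66 and passed the thresholds in 8, with adjusted p-values from 3.33e-05 to 0.226.

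Cdk6 has a span of 189524 bases, the longest of the 10. The 2423 tested protein-coding genes with spans over 100 kb had a median log2 fold change of -0.20, with quartiles of -1.10 and 0.69. Of these, 7 (0.289%), Cdk6 itself included, were at or below the value of Cdk6. The share was 2.52% with spans up to 10 kb and 1.03% with spans of 10 to 100 kb. Cdk6 was the gene of smallest p among the 10, and the part of length in its value was not tested. Rb1, the other long gene of the 10, is not among these 7.

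Cdk4 (ENSMUSG00000006728, chromosome 10, 126899403 to 126903789, plus strand), the partner kinase with the same cyclins, had 80.9, 51.8, 100.5 and 95.8 CPM in HADA replicates 1 to 4. Control replicates 1 to 4 had 72.1, 9.83, 0.52 and 66.7 CPM. The HADA libraries were close together, whereas the control libraries fell into a high and a low pair, and the 15 counts of control replicate 3 stood against 314 in control replicate 2. The log2 fold change was 1.15 ± 1.11 (SE, edgeR quasi-likelihood, BH-adjusted p = 0.489), within the spread of the controls, and it was positive in all 19 alternatives without passing in any. Other gene spans cover 14.6% of Cdk4, and reads there were probably not counted.

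The promoters of both kinases are shown because their transcripts lay on opposite sides of the comparison, and that of Tfdp1 because it is the only one with an E2F site among the 8 genes whose windows could be searched. Each is the 250 bases before a RefSeq start site, 5′ to 3′ on the gene's strand, placed in GRCm39 by exact match: chr5:3393643-3393892 for Cdk6, chr10:126899154-126899403 for Cdk4 and chr8:13388501-13388750 for Tfdp1, all on the plus strand. Capitals mark matches to the motifs described below.
Cdk6: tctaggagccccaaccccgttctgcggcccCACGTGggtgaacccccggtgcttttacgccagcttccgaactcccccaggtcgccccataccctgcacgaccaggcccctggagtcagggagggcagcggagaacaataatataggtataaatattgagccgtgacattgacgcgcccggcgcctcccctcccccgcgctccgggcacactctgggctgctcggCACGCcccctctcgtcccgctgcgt
Cdk4: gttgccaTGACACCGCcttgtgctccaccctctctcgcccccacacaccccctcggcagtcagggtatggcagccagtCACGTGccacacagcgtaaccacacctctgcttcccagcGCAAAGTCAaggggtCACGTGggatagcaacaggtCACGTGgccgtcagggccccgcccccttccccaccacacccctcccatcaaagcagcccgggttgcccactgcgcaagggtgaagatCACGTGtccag
Tfdp1: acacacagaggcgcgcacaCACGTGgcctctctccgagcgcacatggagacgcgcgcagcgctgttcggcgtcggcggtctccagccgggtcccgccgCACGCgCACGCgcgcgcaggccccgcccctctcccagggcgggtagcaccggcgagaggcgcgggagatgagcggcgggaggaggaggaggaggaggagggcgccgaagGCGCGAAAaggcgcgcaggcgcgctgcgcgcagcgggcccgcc

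Motifs were searched on both strands in RefSeq windows from 250 bases before to 50 after a start site (GRCm38.p6), of which 11 windows belonged to 8 of the 10 genes, all but Ccnd2 and Rb1. The core of the antioxidant response element to which Nrf2 binds, TGACNNNGC, was present in 4 of the 11 windows (1 each of Cdk4, Cdkn1a, Cdkn1b and Ccnd3) and in 12.4% of all 32851 windows. The core of the hypoxia response element, ACGTG or GCGTG, was present in 9 of the 11 windows, with at least 1 for each of the 8 genes, and in 43.8% of all windows. E2F sites, spelled TTTGGCGC, TTTCCCGC, TTTCGCGC or TTTGCCGC, were present in 2 of the 11 windows, both of Tfdp1, and in 2.26% of all windows. Those 2 windows of Tfdp1 overlap, beginning at 13388501 and 13388554, and hold the same E2F site, which was thus counted in both. In Cdk4 the hypoxia cores all lie within the word CACGTG, the E-box, which holds ACGTG on both strands. It occurs 4 times in the Cdk4 window, once each in those of Cdk6 and Tfdp1, in 7.15% of all windows, and 4 or more times in 0.0244%. The E-box was counted after these windows had been seen. Cdk4 and Cdk6, which differ in direction, thus share hypoxia cores and an E-box, and a match of letters says nothing of binding.

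D-type cyclins, which activate both kinases, did not differ between the groups beyond the spread of the libraries. Ccnd3 (ENSMUSG00000034165, chromosome 17, 47815976 to 47910616, plus strand) had 193, 192, 730 and 584 CPM in HADA replicates 1 to 4 and 303, 188, 590 and 585 in control replicates 1 to 4. Both groups covered nearly the same range, and the log2 fold change was 0.03 ± 0.73 (SE, edgeR quasi-likelihood, BH-adjusted p = 0.982), with a sign that changed in 12 of 19 alternatives. Ccnd2 (ENSMUSG00000000184, chromosome 6, 127102125 to 127129156, minus strand) had 105, 138, 273 and 535 CPM in HADA and 291, 3.01, 63.8 and 395 CPM in control, in the order of the replicates. Control replicate 2, at 96 counts, was far below the other libraries, and HADA replicate 4 was the highest of all. The fit gave 0.48 ± 1.09 (SE, edgeR quasi-likelihood, BH-adjusted p = 0.778), and it changed sign in 3 of 19 alternatives.

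Ratios of counts within a library do not depend on how libraries are scaled, and they are given as a description. Cdk6 had 94.0, 3247 and 24.5 counts for each count of Cdk4 in control replicates 2, 3 and 4 and 2.51 in control replicate 1. In HADA replicates 1 to 4 the same ratio was 1.10, 1.58, 2.79 and 1.16, so that only control replicate 1 overlapped with HADA. The ratio of Cdk6 to Ccnd3, added after the values of single genes were known, was 0.598, 4.92, 2.88 and 2.79 in control and 0.459, 0.425, 0.384 and 0.190 in HADA, and every control library stood above every HADA library. None of the other ratios shown separated the groups. The share of all genes whose ratio to Ccnd3 would separate them was not computed. The lowest control value, 0.598 in replicate 1, rests on 291 counts of Cdk6 and 487 of Ccnd3. The ratio of Ccnd2 to Ccnd3 overlapped widely, from 0.016 to 0.961 in control and from 0.374 to 0.916 in HADA. For Cdkn1a to Cdkn1b it was 0.108, 0.217, 0.119 and 0.0020 in HADA and 0.0036 to 0.040 in control, so that 3 of 4 HADA libraries stood above the controls and HADA replicate 4 below them.

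**Figure D2:**
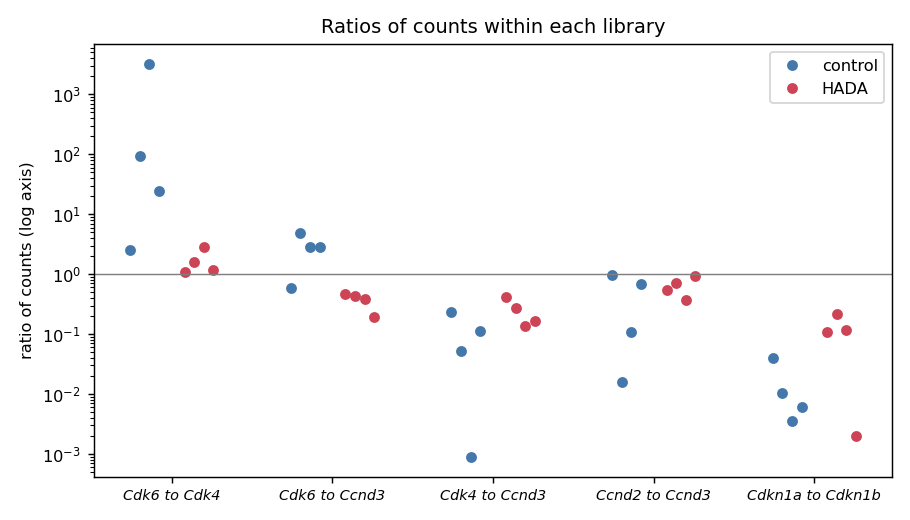
Ratios of counts between pairs of genes in each library, on a log axis; blue points are control and red points HADA libraries, in the order of the replicates from left to right within each group, and the grey line marks equal counts. The ratio of Cdk6 to Ccnd3, added after the gene values were known, is below 0.5 in HADA libraries and above it in control libraries. The ratio of Cdk6 to Cdk4 reaches 3247 in control replicate 3.

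Of the inhibitors, the genes of p21 and of the INK4 protein had higher levels in most HADA libraries, and that of p27 overlapped. Cdkn1a (ENSMUSG00000023067, chromosome 17, 29309950 to 29319701, plus strand) encodes p21, a target of p53 that stops the cell cycle after damage. HADA replicates 1 to 4 had 19.7, 14.5, 19.8 and 0.42 CPM (500, 346, 335 and 7 counts). Control replicates 1 to 4 had 4.35, 0.63, 0.49 and 1.16 CPM (7, 20, 14 and 20 counts). HADA replicates 1, 2 and 3 were above every control, and HADA replicate 4 was below every control. The log2 fold change was 3.24 ± 1.16 (SE, edgeR quasi-likelihood, BH-adjusted p = 0.126), and 4.30 ± 1.20 (SE, edgeR quasi-likelihood, BH-adjusted p = 0.029) without control replicate 1, while leaving out any other library gave 2.84 to 3.72 and no call. With DESeq2 it was 3.19 ± 1.04 (SE, BH-adjusted p = 0.022), and over 17 alternatives by any tool the adjusted p ran from 0.000269 to 0.888. The span overlaps an antisense gene, Dino, over 10.7% of its length. The strand setting of the counting is not given in the sources used here. Since the 1077 genes at 0 were covered by spans taken on either strand, reads in this overlap were probably not counted.

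Cdkn2d (ENSMUSG00000096472, chromosome 9, 21199706 to 21202703, minus strand), which encodes the INK4 protein p19, had 13.8, 22.8, 158 and 72.1 CPM in HADA replicates 1 to 4. In control replicates 1 to 4 it had 18.6, 1.57, 0.10 and 11.99 CPM, the third of these on 3 counts. Control replicate 1 lay above HADA replicate 1, and otherwise the groups were apart. The log2 fold change was 3.08 ± 1.35 (SE, edgeR quasi-likelihood, BH-adjusted p = 0.175), and all 4 HADA libraries were above the control mean. With 1 library left out it ran from 2.27 without HADA replicate 3 to 3.98 without control replicate 1, with adjusted p-values of 0.337 and 0.084 by the edgeR quasi-likelihood test. Cdkn1b (ENSMUSG00000003031, chromosome 6, 134897364 to 134902476, plus strand), which encodes p27, had 183, 66.9, 166 and 208 CPM in HADA and 109, 60.5, 137 and 193 CPM in control. Its levels overlapped throughout, with replicate 2 the lowest of each group, and the log2 fold change was 0.32 ± 0.71 (SE, edgeR quasi-likelihood, BH-adjusted p = 0.769), with the sign changed in 5 of 19 alternatives.

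**Figure D3:**
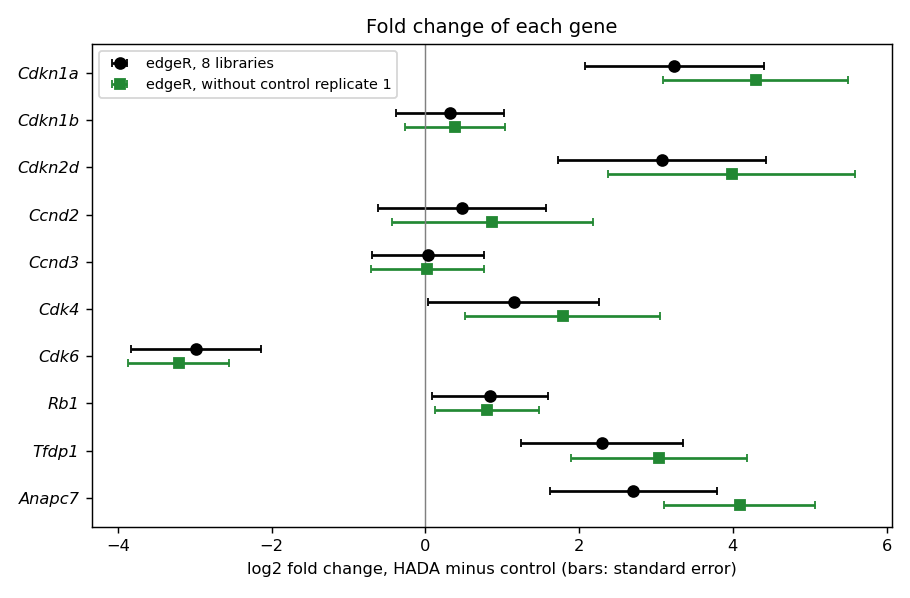
Log2 fold change of each gene, HADA minus control, from edgeR, with bars of 1 standard error; black circles use all 8 libraries and green squares leave out control replicate 1. Cdk6 lies at -2.98 and -3.21, Cdkn1a, Cdkn2d, Tfdp1 and Anapc7 lie above 2 in both fits, and Ccnd3 lies at 0.03 in both.

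Downstream of the kinases, the groups overlapped for Rb1, Tfdp1 and Anapc7. Tfdp1 and Anapc7 were above the control mean in 4 of 4 HADA libraries, and Rb1 in 3 of 4. Rb1 (ENSMUSG00000022105, chromosome 14, 73421113 to 73563262, minus strand) had 105, 52.3, 164 and 60.7 CPM in HADA and 32.3, 31.2, 93.3 and 55.7 CPM in control. The groups overlapped, and the log2 fold change was 0.84 ± 0.76 (SE, edgeR quasi-likelihood, BH-adjusted p = 0.454). Other genes, Rcbtb2 and Lpar6 among them, cover 20.8% of its span. Tfdp1 (ENSMUSG00000038482, chromosome 8, 13388751 to 13428448, plus strand), which encodes the DP1 subunit that E2F factors need to bind DNA, had 28.1, 56.2, 52.7 and 220.1 CPM in HADA and 37.9, 7.42, 1.96 and 26.0 CPM in control. HADA replicate 4 was far above any other library, and control replicate 1 lay above HADA replicate 1. Its log2 fold change was 2.30 ± 1.05 (SE, edgeR quasi-likelihood, BH-adjusted p = 0.187), and 3.04 ± 1.15 (SE, edgeR quasi-likelihood, BH-adjusted p = 0.069) without control replicate 1. Without HADA replicate 4 it was 1.41, with an adjusted p of 0.428 by the edgeR quasi-likelihood test.

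Anapc7 (ENSMUSG00000029466, chromosome 5, 122559756 to 122582975, plus strand), a scaffold subunit of the anaphase-promoting complex, had 5.48, 10.3, 34.0 and 54.2 CPM in HADA replicates 1 to 4. Control replicates 1 to 4 had 11.8, 2.38, 1.78 and 0.93 CPM, on 19, 76, 51 and 16 counts. Control replicate 1 was above HADA replicates 1 and 2, and the other controls were below every HADA library. The log2 fold change was 2.70 ± 1.09 (SE, edgeR quasi-likelihood, BH-adjusted p = 0.152), 4.09 ± 0.98 (SE, edgeR quasi-likelihood, BH-adjusted p = 0.020) without control replicate 1, and 2.63 ± 0.92 (SE, BH-adjusted p = 0.033) with DESeq2. Leaving out any other library gave 2.15 to 3.04 and no call. Over 19 alternatives by any tool its adjusted p ran from 6.94e-06 to 0.954, and that of Tfdp1 from 0.0125 to 0.954.

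Since introns were counted, each gene was set beside a background that lengthens with its span. This background was the density of reads over 1385 olfactory and vomeronasal receptor genes, which T cells are not known to use, and it was 10.8, 8.27 and 3.49 reads per kb in control replicates 2, 3 and 4, 0.080 in control replicate 1, and 2.01 to 5.36 in HADA. Cdk6 had 15.2 to 44.9 times the reads of this density in the control libraries and 2.33 to 9.08 times in HADA. The background was thus 2.23% to 6.58% of its control reads and 11.0% to 42.9% of its HADA reads. Control replicate 1, whose density was the lowest, was at 20.3 times, although its 181 CPM of Cdk6 lay within the HADA range. The share of all genes whose groups would be apart on this measure was not computed. With the background subtracted, the log2 fold change of Cdk6 was -4.82 (adjusted p = 0.030 by the edgeR quasi-likelihood test), where the median of all genes was 1.01. Cdkn1b, Ccnd3 and Cdk6 were above the density in every library. Cdkn1a was below it in 3 of 4 control libraries and in HADA replicate 4, and Anapc7 in 3 of 4 control libraries, from 0.20 to 0.31 times. Tfdp1 was below it in 2 control libraries, and Cdkn2d, Ccnd2, Cdk4 and Rb1 in 1 each. Except for Cdkn1a in 1 library, every one of the 10 genes was above the density in every HADA library. After subtraction the log2 fold changes of Cdkn1b and Ccnd3 were -0.74 and -1.15, with adjusted p-values of 0.956 and 0.804 by the edgeR quasi-likelihood test.

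**Figure D4:**
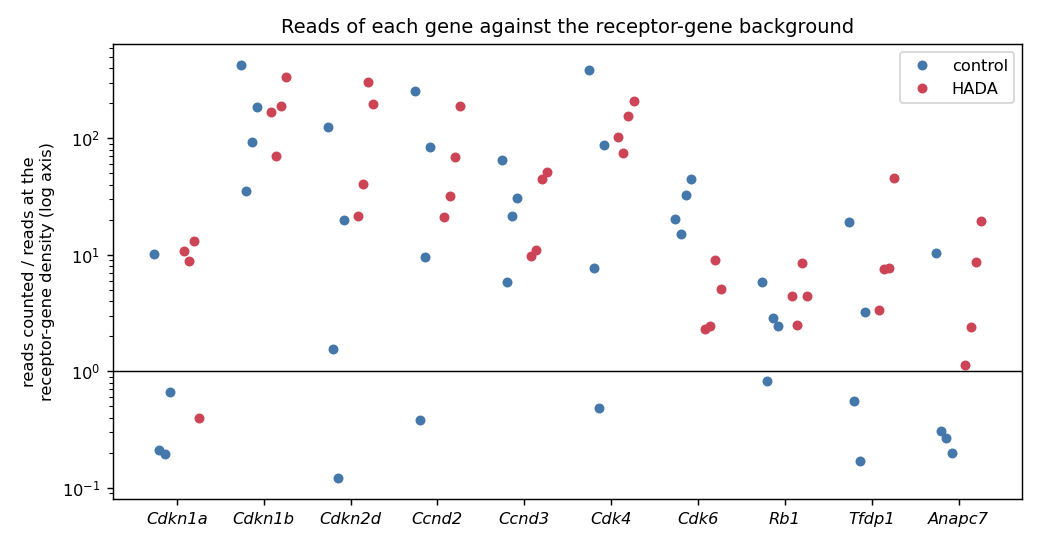
Reads of each gene divided by the reads that the density of receptor genes would give over its span, per library, on a log axis; blue points are control and red points HADA libraries, in the order of the replicates, and the black line marks equality. Cdk6 lies at 15.2 to 44.9 in control and at 2.33 to 9.08 in HADA libraries, and the share of all genes apart on this measure was not computed. For Cdkn1a and for Anapc7, 3 control libraries lie below the line.

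Levels of different genes were compared as CPM per kilobase of exon. Exon lengths came from GENCODE vM39, where Anapc7 ends at 122639108, beyond the counted end at 122582975. Cdk4 starts there at 126895180, before the counted start at 126899403. The divisors of these genes may therefore include exons over which no reads were counted, which would lower their values. In control the order began with Cdk6 at 77.0 ± 49.4, Ccnd3 at 45.0 ± 22.0 and Cdkn1b at 27.4 ± 12.2 CPM per kb (SD, n = 4), and ended with Tfdp1 at 3.25 ± 2.95, Anapc7 at 0.524 ± 0.631 and Cdkn1a at 0.274 ± 0.301. In HADA it began with Ccnd3 at 46.0 ± 29.7, Cdkn2d at 40.1 ± 39.7 and Cdkn1b at 34.3 ± 13.6 CPM per kb (SD, n = 4), while Cdk6 was the seventh at 9.74 ± 6.53. Neighbours among those named differed by less than the larger of their SDs, and on this scale Cdkn1a and Anapc7 were the lowest pair in both groups. Per kilobase of whole span, the length over which reads were counted, Cdk6 was the fourth in control and the ninth in HADA, and Cdkn1b led in both. On that scale Cdkn1a and Anapc7 were again the lowest pair in control, but Cdk6 and Rb1 were the lowest in HADA.

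The 5 genes whose log2 CPM followed Cdk6 most closely over the 8 libraries were Lyrm4, Tmf1, Dctn4, Gnb1 and Inpp4a, with Pearson's r from 0.976 to 0.982, among libraries that share their group and depth. Gnb1, which encodes a beta subunit of heterotrimeric G proteins, had 893, 3721, 8975 and 14784 CPM in control replicates 1 to 4 and 313 to 920 in HADA. Like Cdk6, it was lowest among the controls in replicate 1. Their log2 fold changes ran from -3.60 to -2.66, with adjusted p-values from 0.056 to 0.107 by the edgeR quasi-likelihood test.

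Around these 10 genes, 124 others of the same machinery were read in 9 lists, of which 116 could be tested. None of the 116 passed the thresholds with edgeR's quasi-likelihood test on all 8 libraries, and 21 (18.1%) had an unadjusted p below 0.05, beside 26.7% of all genes. Without control replicate 1, 25 of the 116 (21.6%) passed as higher and 5 (4.31%) as lower, beside 15.5% and 19.7% of all genes.

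Among the 16 other subunits, coactivators and inhibitors of the anaphase-promoting complex, 11 had positive log2 fold changes, with a median of 1.26. Cdc26 had 213.5 ± 33.1 CPM in HADA and 38.0 ± 29.0 in control (SD, n = 4 each), with the groups apart and an adjusted p of 0.117 by the edgeR quasi-likelihood test. Anapc5, Anapc11 and Anapc1, the other abundant ones, had log2 fold changes of -0.19, 1.68 and 0.62. Without control replicate 1, Anapc15, Anapc16, Cdc26, Cdc27 and Fzr1 passed as higher, and none as lower. Cdc20, the mitotic coactivator, went the other way, at 0.293 ± 0.310 CPM in HADA and 14.9 ± 19.1 in control (SD, n = 4 each), with an adjusted p of 0.095 by the edgeR quasi-likelihood test, and was named after its values were seen.

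The 9 genes of the SCF ligase and of p27 turnover had a median log2 fold change of 0.76. Rbx1 and Skp1, subunits of that ligase, had 420.8 ± 158.4 and 310.2 ± 153.0 CPM in HADA against 49.3 ± 78.7 and 42.1 ± 63.8 in control (SD, n = 4 each), with the groups apart for both and adjusted p-values of 0.150 and 0.137 by the edgeR quasi-likelihood test. Both passed without control replicate 1. Cul1 and Cul4b, scaffold genes of such ligases, had log2 fold changes of -0.26 and 0.62.

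Of the 16 other pocket protein, E2F and DREAM complex genes, 10 had positive log2 fold changes, with a median of 1.33. Rbbp4, Lin52, Tfdp2 and Rbl1, the most abundant, had 1.22, -0.31, -0.44 and 1.51, and without control replicate 1 Rbl1, E2f4, Lin9 and Lin37 passed as higher. Tfdp2, the gene of the other DP subunit, thus had a negative value where Tfdp1 had a positive one, and the difference between them was not tested.

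The 7 other G1 cyclins and kinases had a median log2 fold change of -0.58. Ccnh, Mnat1 and Cdk7, which encode the kinase complex that activates other CDKs, had 0.98, -1.11 and -0.58, and Ccne1, which encodes a cyclin of the G1 to S transition, -0.75. Cdk2, the kinase partner of E-type cyclins, had 1.83 and was the only one of the 7 to pass without control replicate 1, as higher. Among the 4 other G1 inhibitors, only Cdkn2a and Cdkn2c could be tested, at -1.20 and -0.47. Cdkn2b stood at 0 in every library, with its span fully covered by other genes. Cdkn1c had 5.53 ± 10.4 CPM in HADA and 0.016 ± 0.031 in control (SD, n = 4 each), below the filter on low counts.

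Genes of S phase and mitosis showed no common direction. Of 18 S phase genes tested, 8 were positive and 10 negative, with a median log2 fold change of -0.27. Pcna, the sliding clamp of DNA replication, had 127.7 ± 49.1 CPM in HADA and 32.1 ± 37.5 in control (SD, n = 4 each), while Mcm4, Pola1 and Rfc4 had log2 fold changes of -0.78, -1.67 and -0.46. Of 19 G2/M genes, 7 were positive and 12 negative, with a median of -0.20. Mki67 had 58.4 ± 24.99 CPM in HADA and 84.5 ± 154.2 in control (SD, n = 4 each), where control replicate 4, at 316 CPM, made up most of the total, and Top2a, Cenpa and Cenpe had log2 fold changes of -2.25, 1.33 and -1.47. Without control replicate 1, Mcm6, Mcm7, Pcna, Birc5 and Mybl2 passed as higher, and Gins1, Bub1 and Kif11 were among those that passed as lower.

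The 16 tested genes of the p53 pathway had a median log2 fold change of 0.94, with 13 positive. Btg2, Sesn1, Trp53inp1 and Ccng1, its most abundant targets, had -0.27, 1.35, 0.84 and 0.33 beside 3.24 for Cdkn1a. Aen, at 4.21, was above Cdkn1a and was named after its values were seen. It had 0.79, 1.47, 56.5 and 79.5 CPM in HADA replicates 1 to 4 and 0.46 to 4.97 in control. The groups overlapped for Aen, with an adjusted p of 0.124 by the edgeR quasi-likelihood test. Trp53, Mdm4, Bax and Polk passed as higher and Eda2r as lower without control replicate 1. The 13 tested quiescence factors had a median of 1.29, with 10 positive. Btg1 was the most abundant of them, at 3022 ± 867 CPM in HADA and 3930 ± 2160 in control (SD, n = 4 each), and Tsc22d3, Foxp1 and Klf2 had log2 fold changes of 1.66, 1.18 and 1.29. Foxo4, Tob1, Tsc22d3 and Slfn2 passed as higher without control replicate 1.

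Markers of other blood cells were present in these libraries. Summed over 12 myeloid genes they reached 1700 to 4339 CPM in HADA and 97.9 to 2838 in control, with none at 0 in every library, and over 10 B cell genes 2775 to 8433 and 577 to 7161, with Ms4a1 at 0 throughout. For 9 CD8 and NK cell genes the sums were 80.2 to 953 CPM in HADA and 10.2 to 105 in control, with none at 0, and Cd8b1, a CD8 T cell marker, was the only gene of these 5 lists past the thresholds, higher in HADA (log2 fold change 4.97, adjusted p = 0.030 by the edgeR quasi-likelihood test). For 8 platelet genes they were 278 to 1738 and 47.3 to 479 CPM, with none at 0. The 8 erythroid genes gave 146 to 2807 CPM in HADA and 1030 to 28367 in control, where control replicate 1 was the highest, with Alas2 at 0 throughout. HADA replicate 4, the highest for Tfdp1 and Anapc7 and the lowest for Cdkn1a, also had the highest CD8 and NK sum. Mitochondrial genes took 6.20% ± 1.07 of the counts in HADA and 2.19% ± 1.32 in control (SD, n = 4 each; exact permutation, two-sided p = 0.029, the lowest value 4 against 4 can reach). The part of these differences in the values of the 10 genes was not tested.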

How the data were processed

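Gene-level RNA-seq counts of 4 HADA and 4 control Treg libraries were analysed. Per the labels, cDNA came from a low-input kit. The submitters' processing notes name FastQC, Trimmomatic, STAR, featureCounts and GRCm39, and the authors deposited raw counts without normalization; versions, strand and multi-mapping settings are not given in the sources used here. The deposited length equals the gene span for 100% of genes. Libraries were grouped and numbered from their labels. Gene names and exon lengths came from GENCODE vM39, which named 56236 of 56980 identifiers (98.7%). Coordinates are those deposited, and 34095 genes had the same start and end in GENCODE vM39.

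Differences were tested with edgeR 4.0.16 (TMM, filterByExpr, quasi-likelihood test, no covariates) in R 4.3.3 on 21991 genes, with Benjamini-Hochberg adjustment over all of them and the thresholds of the study (adjusted p below 0.05, log2 fold change beyond 1). Standard errors are the log2 fold change divided by the square root of the F statistic. The study's methods name DESeq2, and version 1.42.0 was run as an alternative, with limma 3.58.1 on log2(CPM + 1), other scalings and filters, libraries drawn down to 1477431 counts, a receptor-gene background, a replicate block and each library left out. Single values per library were compared by exact permutation. Floors and counts carry counting error only.

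On simulated counts with 200 changed genes of 21818 and a dispersion of 0.2, edgeR recovered 4.48%, 70.1% and 89.4% of log2 changes of 1, 2 and 3, with 3.54% of calls false. With the common dispersion of these libraries, 0.805, it recovered 0% of each size among 21490 genes. Every simulated gene had the same dispersion and only 200 were changed. In the data, 26.7% of genes had an unadjusted p below 0.05 by the edgeR quasi-likelihood test, and 468 genes passed. The simulated shares therefore do not measure the power of the test on these libraries.

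The 10 genes and the gene lists were chosen with earlier results of these data known. From each list up to 4 genes were named, those past the thresholds first and then the most abundant, besides the 5 genes most like the member of smallest p, and genes named after their values were seen because they passed another fit. A further pair of alternatives that leave out control replicate 1 together with another choice was added after the data were seen.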

Additional observations from a re-analysis of the deposited data

Results flagged for a closer look

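In the HADA group, the Cdkn1a level of replicate 4 lay far below the other 3 libraries, at -0.94 log2 CPM (7 counts), a gap beyond Dixon's critical value for 4 libraries. This was the only such case among 20 groups of 4 libraries, where chance gives about 1. The other HADA libraries had 335 to 500 counts.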

How the results depend on the processing

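Over 187 refitted values of the 10 genes, 148 kept their direction and their side of the thresholds, 17 passed newly and 22 changed sign. Cdk6 was negative and Cdkn1a, Cdkn2d, Cdk4, Tfdp1 and Anapc7 were positive in every alternative that tested them. Cdkn1a, Cdkn2d or both were left untested with a minimum of 10 counts per library or after drawing down.

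Of 21991 genes tested, 468 passed by the reported fit, 890 with limma and 386 with library totals without TMM (0.937% higher and 0.819% lower in HADA). DESeq2 gave 5545 of 30668 genes (6.78% higher and 11.3% lower). A minimum of 10 counts per library gave 226 of 8472 (1.10% higher and 1.57% lower). Drawing down to the lowest total gave 230 of 10502 (1.21% higher and 0.981% lower). Subtracting the receptor background gave 200 of 9173 (1.08% higher and 1.10% lower). Of the 10 genes, 1 passed with library totals without TMM, 3 with DESeq2, and 1 each with the count minimum, the draw-down and the background. Leaving out 1 library gave 29 of 22693 genes (without control replicate 3) to 8448 of 24048 (without control replicate 1), and 0 to 3 of the 10. Without control replicate 1, chosen after seeing the data, DESeq2 gave 12100 of 33489 genes (18.1% higher and 18.1% lower in HADA). Of the 10 it gave 5, 4 of them higher and 1 lower. Background subtraction without that library gave 2654 of 9842 genes (22.0% higher and 4.95% lower). Of the 10 it gave 2, 1 higher and 1 lower. The share of calls higher in HADA was 77.6% as reported, 37.5% with DESeq2, 53.4% with totals, 91.5% with limma, 88.3% with no filter, 41.2% with the count minimum, 55.2% drawn down, 49.5% with the background, and 44.0% without control replicate 1, against 90.9% to 96.7% without any other single library. Over all genes the median log2 fold change, 0.01 as reported, was -0.71 with totals and -0.99 with DESeq2. The cause was not tested.

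Ccnd3 turned to -0.21 with DESeq2 size factors, -0.68 with totals, -0.19 with DESeq2, -0.077 with limma, -0.84 with the count minimum, -0.85 drawn down, -1.15 with the background and -1.33 with the background without control replicate 1, and ran from -0.25 to 0.38 with 1 library left out. Cdkn1b turned to -0.29, -0.43, -0.44, -0.74 and -0.88 with totals, the count minimum, the draw-down, the background, and the background without control replicate 1. Ccnd2 turned to -0.022 and -0.19, and Rb1 to -0.0252 and -0.0247, with the count minimum and the draw-down, and Ccnd2 ran from -0.048 to 1.19 with 1 library left out.

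Libraries of the same number correlated at -0.207, 0.252, -0.0805 and -0.00316 in their deviations from the group means. These values differ in sign and the labels name no pairing, so that a pairing could be neither shown nor excluded. A replicate block gave 169 of 21991 genes (158 higher and 11 lower in HADA), none of the 10, and a Ccnd3 value of -0.076.

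Depth limits the low genes: the 3-count floor of control replicate 1 was 1.86 CPM, above the level of Cdkn1a in 3 of 4 and of Anapc7 in 2 of 4 control libraries.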
